A study of Homo sapiens with 4 samples.

Results

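The transcripts of 10 transcription factor genes of the immediate early response were examined in K562 cells: the FOS family (FOS, FOSB, FOSL1, FOSL2), the JUN family (JUN, JUNB, JUND), ATF3, and the zinc finger factors EGR1 and EGR2. They were taken by their symbols from a deposited table of 23615 genes, in which all 10 were found, and 9 of them carried enough fragments to be tested. K562 is an established human line from chronic myeloid leukaemia in blast crisis, with erythroid features. The cells were treated for 3 h with 5 µM clofarabine, added in DMSO at a final 0.005%, or with DMSO alone, and 2 RNA-seq libraries were analysed for each. Clofarabine is a purine nucleoside analogue used against leukaemia; its triphosphate blocks the making of deoxynucleotides and the elongation of DNA. The comparison asks which transcripts differ between drug and solvent. The libraries are called C0 and C1 (clofarabine) and V0 and V1 (DMSO). The table gives only the letters C and V, read here as clofarabine and vehicle, and under the opposite reading every direction given would reverse.

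Immediate early genes are transcribed within minutes of a stimulus, without new protein synthesis, because the factors that act on their promoters are already in the cell. JUN proteins bind DNA as pairs with each other or with FOS proteins, and these pairs, together called AP-1, bind the sequence TGACTCA and its reverse complement TGAGTCA. FOS proteins need a JUN partner. ATF3 belongs to the same leucine zipper class and is induced by many stresses, and EGR1 and EGR2 bind GC-rich sites through zinc fingers. In K562 cells, phorbol esters that drive the line toward megakaryocytic features are a classical inducer of this group. All libraries here were of 3 h of treatment, so a rise within minutes that had passed by then would not be seen.

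The stretches just before the transcription start of 7 members are printed to show some of the elements through which such stimuli can act. They were taken from RefSeq (GRCh38.p14), while the counts were made on hg19, and no coordinates were carried between the builds. Capitals mark the cAMP response element core TGACGT on either strand (ACGTCA on the other), the variant TGACATCA that JUN and ATF2 bind in the JUN promoter, the CArG box bound by SRF, and TATAAA. For genes with several start sites, counted along the gene, the stretch is that of site 1 of ATF3 and site 3 of EGR2. The motifs marked in these stretches were found in no other window of the same gene. Which start site these cells use was not determined.
FOS, chr14:75278718-75278827 (+ strand): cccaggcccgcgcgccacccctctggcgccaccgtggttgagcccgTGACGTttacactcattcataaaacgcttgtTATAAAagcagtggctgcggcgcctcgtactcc
JUN, chr1:58784048-58784157 (- strand): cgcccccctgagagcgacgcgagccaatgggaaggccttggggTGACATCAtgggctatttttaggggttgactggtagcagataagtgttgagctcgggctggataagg
JUNB, chr19:12791376-12791485 (+ strand): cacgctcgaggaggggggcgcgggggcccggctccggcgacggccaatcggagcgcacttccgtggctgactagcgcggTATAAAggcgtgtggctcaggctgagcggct
JUND, chr19:18281623-18281832 (- strand): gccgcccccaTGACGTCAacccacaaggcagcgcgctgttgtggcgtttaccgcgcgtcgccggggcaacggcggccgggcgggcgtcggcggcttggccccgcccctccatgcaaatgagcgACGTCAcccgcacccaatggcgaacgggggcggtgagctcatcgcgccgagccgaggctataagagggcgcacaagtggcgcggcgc
ATF3, chr1:212565277-212565406 (+ strand): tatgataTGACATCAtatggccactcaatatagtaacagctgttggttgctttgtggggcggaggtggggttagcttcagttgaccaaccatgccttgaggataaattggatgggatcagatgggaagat
EGR1, chr5:138465334-138465478 (+ strand): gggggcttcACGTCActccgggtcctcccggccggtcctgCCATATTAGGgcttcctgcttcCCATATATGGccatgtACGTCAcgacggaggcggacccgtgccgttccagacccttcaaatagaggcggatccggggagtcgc
EGR2, chr10:62816367-62816476 (- strand): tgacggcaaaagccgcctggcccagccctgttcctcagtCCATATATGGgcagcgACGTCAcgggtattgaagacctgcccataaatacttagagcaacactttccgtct

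Windows from 250 bases before to 50 bases after the start were held for 9 members, all but FOSL1, with 2 start sites for ATF3 and 3 for EGR2. Positions are counted from the start site, with -1 the base before it. The motifs were chosen after the sequences had been seen and were searched on both strands. A member was counted when any of its windows held the motif, while the percentages are shares of single windows. The 2 are therefore not on the same footing for ATF3 and EGR2. The core TGACGT was found in 6 of these 9 members, against 7.98% of the 35116 windows of the same length: in FOS at -64 to -59, in FOSB at -60 to -55, in FOSL2 at -66 to -61, in JUND at -87 to -82 and, as an overlapping palindrome, at -200 to -193, in EGR1 at -136 to -131 and -67 to -62, and in EGR2 at -55 to -50. JUNB held none. The variant TGACATCA was found in JUN at -67 to -60 and in ATF3 at -123 to -116, and in 2.61% of windows. A CArG box was found in EGR1, at -105 to -96 and -83 to -74, and in EGR2 at -71 to -62, and in 1.29% of windows. TATAAA was found in FOS at -33 to -28, in FOSB at -30 to -25 and in JUNB at -31 to -26. In ATF3 it lay further off, at -230 to -225 of site 2, not in the printed site 1. It occurred in 11.5% of windows. The EGR site GCGNGGGCG was found in EGR1 at -198 to -190 and in 9.43% of windows. In EGR2 it lay at 8 to 16 bases after the start of site 2, not in the printed site 3. The AP-1 site TGACTCA, whose reverse complement is TGAGTCA, occurred in FOSL2, at 4 to 10 bases after the start, and in 4.95% of windows. These are matches of letters in these windows, not measured binding. Sequence further than 250 bases before the start was not searched, so a motif not found for a member may lie outside its window.

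AU-rich pentamers, a feature of many short-lived messages, were counted in the transcripts. In the longest coding transcript of each gene (GENCODE 29), the 3′ UTR held the pentamer AUUUA in 10 of 10 members, against 62.8% of 18831 genes, and it occurred 9 times in FOSL2, 5 times in FOS, 3 times in FOSB, JUN and ATF3, 2 times in JUNB and EGR2 and 1 time in FOSL1, JUND and EGR1. At least 3 copies were found in 5 of the 10 members and in 35.7% of genes. The nonamer UUAUUUAUU, a stronger AU-rich element, was present in FOS and FOSL2 and in 7.18% of genes. JUN, JUNB and JUND are each made from 1 exon, as are 4.77% of genes. These are properties of the annotated genes, and RNA stability was not measured. JUNB and JUND both lie on chromosome 19, as does FOSB.

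Levels of different genes were compared as the authors' FPKM, fragments scaled by transcript length and by library total. JUND was the most abundant, with a mean of 60.1 FPKM over the 4 libraries, a level above that of 85.9% of the 11761 genes tested. JUNB followed with a mean of 23.5 FPKM, ATF3 with 15.8, FOSL1 with 11.3, JUN with 9.97 and EGR1 with 8.88. FOS, with 2.49 FPKM, lay above 22.4% of tested genes, FOSB had 0.670 and FOSL2 0.429. EGR2 was listed at 0.0263 FPKM. Of the neighbours in this order, FOSL1 and JUN, JUN and EGR1, and FOSB and FOSL2 had overlapping ranges over the libraries, and the other neighbours did not. The prevailing AP-1 transcripts of these cells, with or without drug, were thus JUND and JUNB on the JUN side and FOSL1 on the FOS side.

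Of the 9 tested members, JUNB was called higher in clofarabine and none was called lower, at an edgeR quasi-likelihood adjusted p under 0.05 over all genes (Benjamini-Hochberg). Over the 11761 tested genes the same rule called 2.57%, with 1.54% higher and 1.03% lower. An estimate above 0 was obtained for 9 of the 9 tested members, against 50.6% of all tested genes. The unadjusted p was under 0.05 with the higher level in clofarabine for 3 of the 9, JUNB, ATF3 and FOSL1, against 8.17% of genes. Values in CPM, fragments scaled to a common library total, of the 2 groups did not overlap for 5 of the 9 (FOS, FOSL1, JUNB, ATF3 and EGR1), with clofarabine higher in each. Over all genes such separation was common with 2 libraries a group: 43.2% of genes showed it, 22% with clofarabine higher and 21.3% with clofarabine lower. The median log2 fold change of the 9 was 0.31, beside 0.0020 over all genes tested and a median size of 0.12 in either direction. In bulk RNA, more cells with a transcript and more transcript per cell cannot be told apart, and nothing in the labels says that the 2 libraries of a group came from separate cultures, so the spread behind each p-value may be technical.

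**Figure D1:**
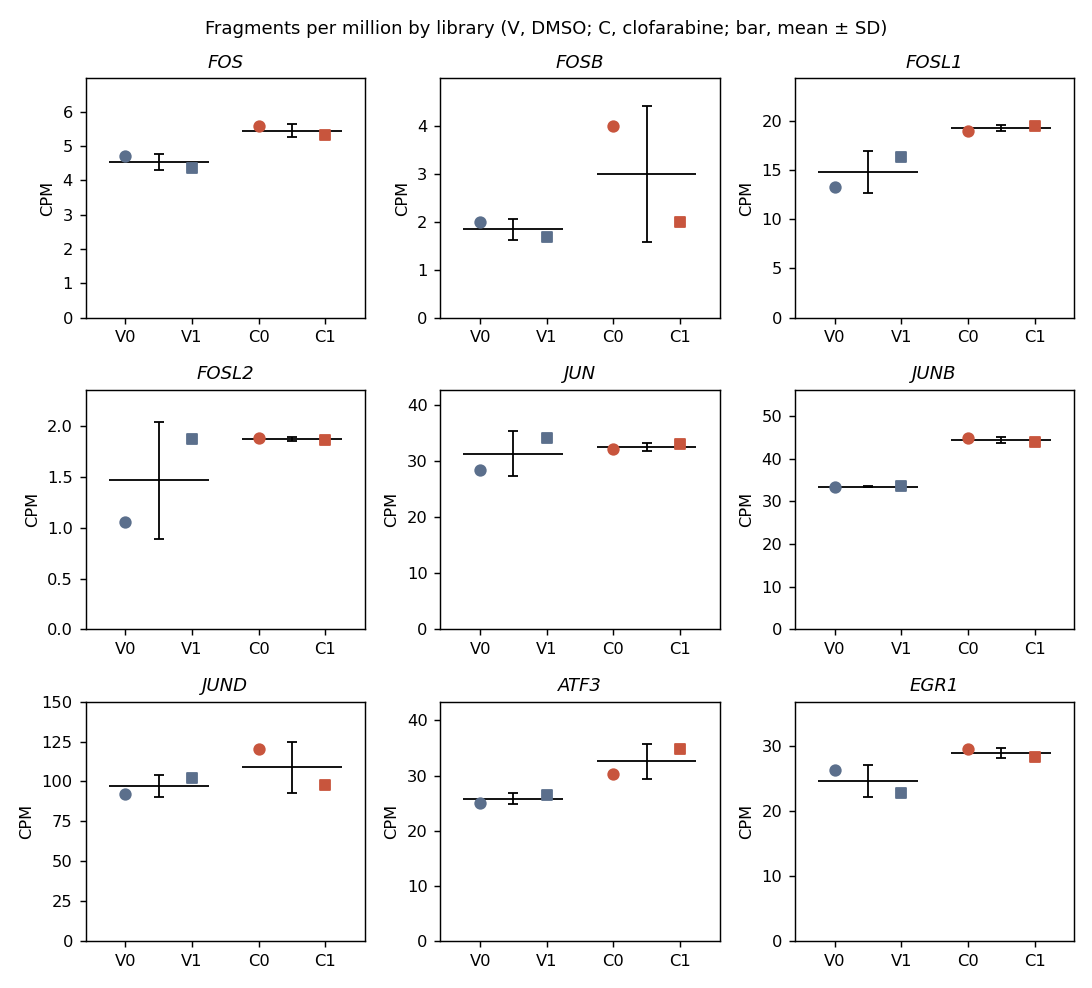
Scaled fragments (CPM, y axis from 0) of the 9 tested members in each library (x axis; V0 and V1 DMSO, blue; C0 and C1 clofarabine, red), with horizontal lines at the group means and bars of 1 SD, n = 2. In JUNB the DMSO libraries lie at 33.4 and 33.5 and the clofarabine libraries at 44.0 and 44.9, while in JUN, JUND, FOSB and FOSL2 the groups overlap.

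**Figure D2:**
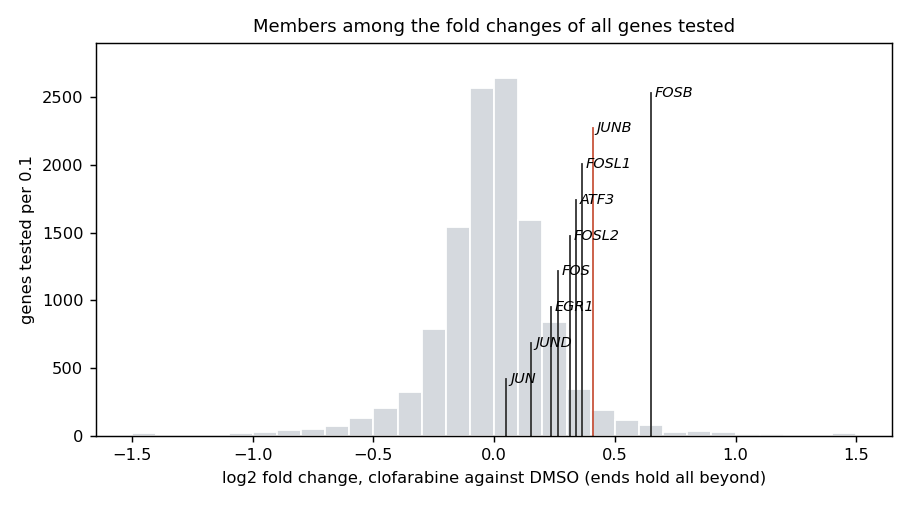
Number of tested genes (y axis) by log2 fold change of clofarabine against DMSO (x axis, bins of 0.1, grey bars), with a vertical line at the estimate of each tested member, of arbitrary height; the red line is JUNB, the called member. All 9 lines lie right of 0, from 0.051 for JUN to 0.65 for FOSB.

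JUNB encodes a JUN family member that restrains proliferation in myeloid cells and that often opposes JUN at shared sites. It was counted at 596 and 1017 fragments in C0 and C1 and at 284 and 376 in V0 and V1. Scaled to library size these were 44.9 and 44.0 CPM with clofarabine and 33.4 and 33.5 CPM with DMSO. The groups were apart, and the libraries within each differed little. Mean levels were 44.5 ± 0.649 CPM with clofarabine and 33.5 ± 0.0715 CPM with DMSO (SD, n = 2), and JUNB rose 1.33-fold (95% interval 1.15 to 1.53; 0.41 ± 0.097 SE on the log2 scale, edgeR adjusted p = 0.0250). The estimate hardly moved when each library was left out in turn, at 0.39 to 0.42, but with a single DMSO library JUNB no longer passed the threshold: the adjusted p was 0.0812 when V0 was dropped and 0.210 when V1 was. The call was also lost with DESeq2 (adjusted p = 0.0852) and in limma fits to log2(FPKM + 1) and log2(FPKM + 0.1), with adjusted p of 0.0689 and 0.0626. HOOK2 overlaps JUNB on the other strand, and the strand setting of the counting is not given; it had 5.89 to 7.32 CPM over the 4 libraries and a log2 fold change of -0.0058 (edgeR adjusted p = 0.996).

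JUN, the founding member and the partner most often paired with FOS, stood at 32.1 and 33.1 CPM in C0 and C1 and at 28.5 and 34.2 CPM in V0 and V1. The clofarabine libraries lay between the DMSO libraries. The log2 fold change was 0.051 (95% interval -0.18 to 0.29, edgeR adjusted p = 0.909), an interval that leaves room for a modest difference either way, and without V0 it was -0.066. It was 0.014 with library size only and 0.12 at equal depth.

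JUND, the most constant JUN protein in resting cells, was counted at 120.1 and 97.6 CPM in C0 and C1 and at 92.2 and 102.1 CPM in V0 and V1. C1 lay below V1, so the groups overlapped. The log2 fold change was 0.15 (95% interval -0.031 to 0.34, edgeR adjusted p = 0.478). This value rested on C0: it was 0.0044 without C0, and 0.30 with an adjusted p of 0.0286 without C1.

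FOSL1, which encodes FRA-1, a FOS protein without the strong activation domain of FOS, was counted at 252 and 449 fragments with clofarabine and at 113 and 183 with DMSO. Its levels were 19.0 and 19.4 CPM in C0 and C1 and 13.3 and 16.3 CPM in V0 and V1. The clofarabine libraries were close together and above both DMSO libraries, which differed more from each other. The log2 fold change was 0.37 (SE 0.14, 95% interval 0.067 to 0.66), with an unadjusted p of 0.0187 and an edgeR adjusted p of 0.227. Leaving out V0 gave 0.24 and leaving out V1 gave 0.52, so the size depended on which DMSO library was the reference.

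FOS, the classical immediate early gene, was scarce, at 74 and 123 fragments with clofarabine and 40 and 49 with DMSO. Its levels were 5.58 and 5.32 CPM in C0 and C1 and 4.71 and 4.37 CPM in V0 and V1. The groups did not overlap, yet the interval was wide, with a log2 fold change of 0.26 (95% interval -0.26 to 0.79, edgeR adjusted p = 0.723). With the libraries thinned to equal depth it was 0.48 (adjusted p = 0.495).

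FOSB stood at 3.99 and 1.99 CPM in C0 and C1 and at 2.00 and 1.69 CPM in V0 and V1. C0 alone was high, and C1 lay within the DMSO range. Its log2 fold change of 0.65 was the largest of the 9 and was not called (95% interval -0.22 to 1.52, edgeR adjusted p = 0.544), and it was 0.12 without C0 and 1.12 without C1. ERCC1, a DNA excision repair gene, overlaps FOSB on the other strand and was far more abundant, at 71.6 and 83.4 CPM with clofarabine and 94.3 and 90.4 CPM with DMSO, so fragments of FOSB could be shared with it if strand was not used in counting. The log2 fold change of ERCC1 was -0.24 (edgeR adjusted p = 0.145).

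FOSL2, which encodes FRA-2, had 9 to 43 fragments a library, or 1.88 and 1.86 CPM in C0 and C1 and 1.06 and 1.87 CPM in V0 and V1. V0 alone was low. The log2 fold change of 0.31 (95% interval -0.61 to 1.24, edgeR adjusted p = 0.828) became -0.00057 without V0 and 0.81 without V1, and was 0.14 at equal depth. In GENCODE 29, FLJ31356 on the other strand and AC104695.3 on the same strand overlap FOSL2.

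ATF3, the stress-induced member, was counted at 403 and 803 fragments with clofarabine and at 213 and 297 with DMSO. Its levels were 30.4 and 34.7 CPM in C0 and C1 and 25.1 and 26.5 CPM in V0 and V1, so the groups were apart. Means were 32.6 ± 3.09 and 25.8 ± 1.00 CPM (SD, n = 2). The fitted fold was 1.27, a log2 fold change of 0.34 (SE 0.12, 95% interval 0.098 to 0.58). The unadjusted p was 0.00814 and the edgeR adjusted p 0.150, which missed the threshold. Without C0 the log2 fold change was 0.43 and the adjusted p 0.0384; without C1 it was 0.23 with an adjusted p of 0.481.

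EGR1, a factor induced by growth factors, phorbol esters and DNA damage, was counted at 391 and 655 fragments with clofarabine and at 224 and 256 with DMSO. Its levels were 29.5 and 28.3 CPM in C0 and C1 and 26.4 and 22.8 CPM in V0 and V1. The groups did not overlap, by a margin smaller than the gap between the DMSO libraries. The log2 fold change was 0.24 (95% interval -0.014 to 0.49, edgeR adjusted p = 0.393), and it lay between 0.12 and 0.34 when each library was left out. EGR2, which acts in myelination and in lymphocyte and macrophage differentiation, had 1 and 2 fragments in C0 and C1 and 1 and 0 in V0 and V1. All 4 libraries were under a floor of 3 fragments (0.130 to 0.353 CPM), so that EGR2 was not detectable above this floor at this depth in either group, and no fold is given.

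**Figure D3:**
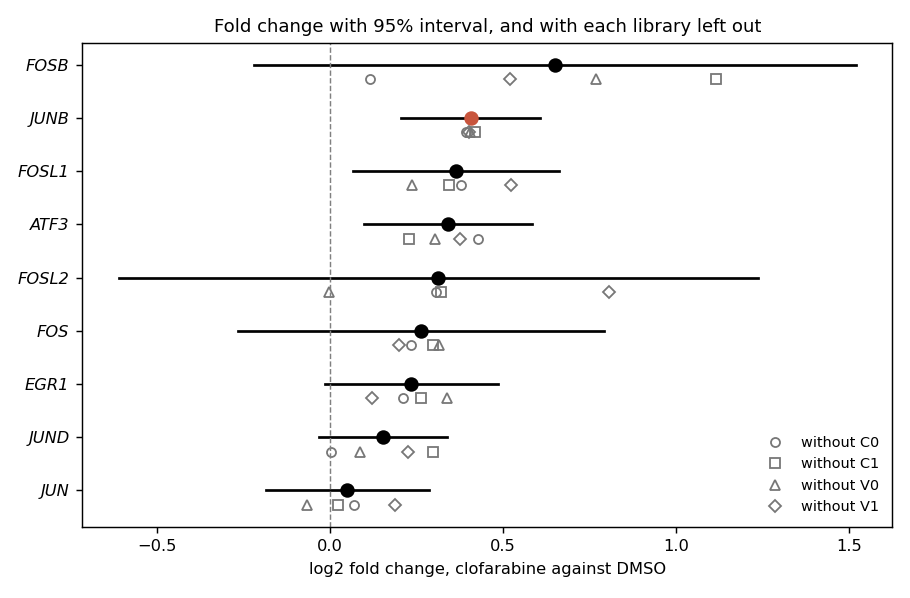
Log2 fold change of clofarabine against DMSO (x axis) for each tested member, with 95% intervals (filled circles and lines; red, the called member JUNB) and the estimates with each library left out (open symbols). The 4 estimates for JUNB lie within 0.39 to 0.42, while those of FOSB run from 0.12 to 1.12 and those of FOSL2 and JUN reach below 0 without V0.

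The spread between libraries of a group was set against counting error, with exact binomial (Clopper-Pearson) 95% intervals that cover counting error only, since amplified fragments are not independent molecules. Of 18 within-group ratios of CPM, 5 had intervals that left out equality, and the share over all genes was not counted. FOSB differed most, with a ratio of C0 to C1 of 2.01 (1.33 to 3.05). The ratio for JUND was 1.23 (1.15 to 1.31) between C0 and C1 and 0.903 (0.824 to 0.990) between V0 and V1. For ATF3 it was 0.874 (0.774 to 0.987) between C0 and C1, and for JUN 0.834 (0.707 to 0.982) between V0 and V1. JUNB was even in both groups, at 1.02 and 0.997, so its replicates differed by less than counting error can show. The median size of the log2 ratio over the 9 members was 0.056 between the clofarabine libraries and 0.21 between the DMSO libraries, beside 0.12 in each group over 11737 genes. The value for the clofarabine libraries depended on the scaling and was 0.11 with library size only.

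**Figure D4:**
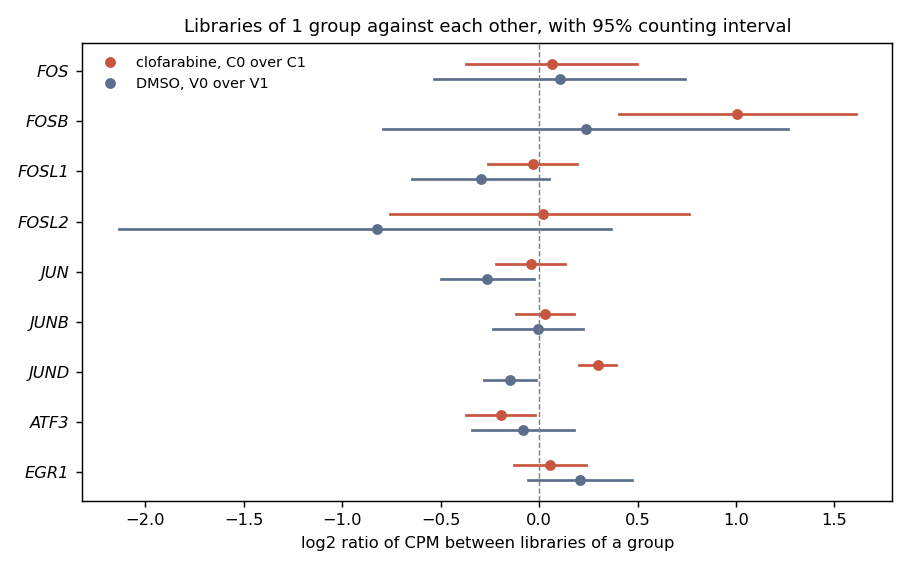
Log2 ratio of CPM between the libraries of a group (x axis) for each tested member, C0 over C1 in red and V0 over V1 in blue, with 95% counting intervals as lines. FOSB and JUND stand right of 0 between the clofarabine libraries, and JUNB lies at 0 in both groups.

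The balance of the AP-1 families was described from FPKM summed over their members, with no test, since 2 libraries against 2 cannot give a permutation p below 0.333. The FOS family sum was 17.0 and 16.6 FPKM in C0 and C1 and 12.0 and 13.9 in V0 and V1, and the JUN family sum was 107.3 and 93.7 with clofarabine and 83.1 and 90.3 with DMSO. Both sums were higher in each clofarabine library than in either DMSO library, narrowly for the JUN family (93.7 in C1 and 90.3 in V1). Among single genes tested, 22% were separated in this direction in CPM. FOS family transcripts made up 14.3% ± 0.936 of the AP-1 sum with clofarabine and 13.01% ± 0.516 with DMSO (SD, n = 2), and JUN transcripts exceeded them by ratios of 5.98 ± 0.456 and 6.69 ± 0.305. Within the JUN family, the share of JUNB was 26.8% ± 2.13 with clofarabine and 23.4% ± 1.40 with DMSO, without overlap. This share comes from the same JUNB libraries as the call and adds no separate evidence. The shares of JUND (63.0% ± 3.29 and 65.4% ± 0.648) and JUN (10.2% ± 1.16 and 11.3% ± 0.747) overlapped. Within the FOS family all 4 shares overlapped between the groups, and FOSL1 made up 76.0% ± 2.58 with clofarabine and 75.6% ± 2.81 with DMSO.

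**Figure D5:**
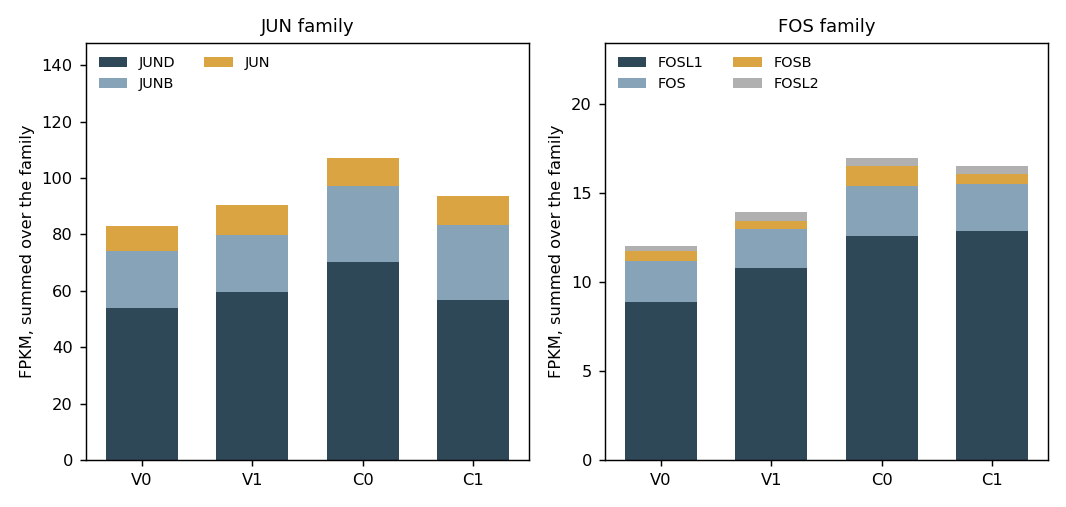
FPKM summed over the JUN family (left) and the FOS family (right) in each library (x axis), with stacked bars for the members; the y axes start at 0 and differ in scale. JUND makes up most of each JUN family bar and FOSL1 most of each FOS family bar, in both groups.

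Genes that act with or around the members were taken from lists, and their counts stand against the same 2.57% of all tested genes called. Of 19 other leucine zipper factors of the AP-1, CREB and MAF groups, 15 were tested, 1 was called higher and 12 had estimates above 0 (median log2 fold change 0.067). The called gene was CREM, which encodes cAMP-responsive activators and repressors, at 37.0 and 39.5 CPM in C0 and C1 and 24.0 and 29.2 CPM in V0 and V1. CREM rose by 0.52 ± 0.11 (SE) on the log2 scale with an edgeR adjusted p of 0.0137. It was no longer called when V0 was dropped, at 0.40 and an adjusted p of 0.128, and in the FPKM and equal-depth fits.

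Of the 36 other immediate early genes, 28 were tested, 17 had estimates above 0 (median 0.050) and 1 was called, in the lower direction. That gene was MYC, a regulator of growth and proliferation, at 195.0 and 186.5 CPM in C0 and C1 and 292.3 and 297.5 CPM in V0 and V1. MYC fell by 0.63 on the log2 scale (SE 0.065, edgeR adjusted p = 1.9e-06), a movement opposite to that of JUNB in the same libraries. None of the 3 tested EGR relatives and NAB corepressors of 4 was called (median 0.00096); the smallest p was that of EGR3, at 0.624 to 1.06 CPM, with a log2 fold change of -0.13 (edgeR adjusted p = 0.959), whose sign turned without C1 or without V0.

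Upstream of the members, none of the 6 genes for SRF and its partners was called (median -0.10). ELK1, an SRF partner activated by ERK, had the smallest p, with 92.9 and 104.1 CPM in C0 and C1, 115.4 and 121.1 CPM in V0 and V1 and a log2 fold change of -0.26 (edgeR adjusted p = 0.0792). With each library left out it ranged from -0.18 without C0 to -0.35 without C1, and the adjusted p was 0.253 without C0, 0.00553 without C1, 0.141 without V0 and 0.573 without V1. None of the 25 tested of 28 MAP kinase cascade genes was called (median -0.041). The smallest p there was that of RPS6KA5, which encodes the kinase MSK1 that phosphorylates CREB and histone H3. It was at 5.35 and 3.42 CPM with clofarabine and 1.65 and 2.05 CPM with DMSO, on 14 to 79 fragments, with an estimate of 1.19 ± 0.36 (SE) on the log2 scale (edgeR adjusted p = 0.0883). It was 0.87 without C0 (adjusted p = 0.357) and 1.51 without C1 (adjusted p = 0.0167), and the adjusted p was 0.234 without V0 and 0.254 without V1. None of the 18 genes of AU-rich element binding and message decay was called (median 0.0016). ZFP36, itself an immediate early gene whose protein triggers decay of AU-rich messages, had the smallest p there, at 13.04 and 12.85 CPM with clofarabine and 9.77 and 8.47 CPM with DMSO (log2 fold change 0.51, SE 0.17, edgeR adjusted p = 0.127).

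Downstream, 11 of 16 genes long known as AP-1 or EGR targets were tested, and none was called in either direction (median 0.0049, 7 of 11 above 0, 0 with an unadjusted p under 0.05). Some rested on few fragments and could hide sizeable changes. PLAU had 8 to 29 fragments a library (95% interval -1.02 to 1.37) and IL8 had 8 to 22 (-0.95 to 0.95). Others were well counted, such as TIMP1 at 160.4 to 169.4 CPM (-0.13 to 0.14). CCND1, which encodes cyclin D1, had the smallest p, with a log2 fold change of -0.19 (95% interval -0.46 to 0.074, edgeR adjusted p = 0.564). Over the lists around the members, then, the 2 called genes were CREM and MYC, and they moved in opposite directions.

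The 4 libraries held 8370550 to 23888755 fragments, deepest in the clofarabine group. All 11 K562 markers were tested, and their summed level was 25487 and 29859 CPM with clofarabine and 26133 and 27737 CPM with DMSO. HBE1, an embryonic globin, gave 13187 to 16019 CPM of this sum and was the only marker with an estimate above 0 (0.13); 10 of the 11 had estimates below 0, and 3 had an unadjusted p under 0.05 (GATA1, KLF1 with -0.19 and ABL1 with -0.15). GATA1, the erythroid master regulator, was called lower (log2 fold change -0.25, edgeR adjusted p = 0.0445). This adjusted p lay close to the threshold, and the markers were not followed gene by gene under the alternative settings. Of 10 markers of other blood, epithelial, stromal and liver cells, 4 were tested and none called, and the sum was 99.3 and 100.1 CPM with clofarabine and 100.2 and 93.4 CPM with DMSO, mostly from EPCAM, CD3D and LYZ. MS4A1 was at 0 fragments in all libraries, and CD79A, CD3E, CD14 and ALB were each below 1 CPM. Fold changes over all genes varied with transcript length: when the tested genes were cut into 10 equal classes by length, the median log2 fold change in the shortest class was 0.090 and 6.63% of genes were called higher. JUNB, JUND, ATF3 and FOSL1 fall in length class 3, where the median was -0.0020 and 0.850% were called higher. The call of JUNB remained when the length trend was removed (log2 fold change 0.44, edgeR adjusted p = 0.00625). Length also went with the difference between the clofarabine libraries. The median log2 ratio of C1 to C0 was 0.13 in the shortest class and -0.087 in the longest. For clofarabine against DMSO these medians were 0.090 and -0.019.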

How the data were processed

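RNA came from a TRIzol LS extraction and the libraries from a directional NEBNext kit, per the labels' protocols. Per the submitters' processing notes, cutadapt 1.5, TopHat2 2.0.13 and Cuffdiff 2.2.1 were used on hg19 (not given in the sources used here: annotation, strand setting). For each gene and library the authors deposited, per the file headers, estimated counts of fragments, which may be fractions since Cuffdiff splits fragments among gene models, the authors' scaled fragments (a signal, not used in the fits) and the authors' FPKM. A failed status was given for 6 genes, none of them a member.

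Estimated counts were rounded (431 to 483 genes a library changed). Genes passing edgeR's filterByExpr (minimum count 10) were scaled by TMM and compared by the quasi-likelihood test with group as the only term (edgeR 4.0.16, R 4.3.3), adjusted by Benjamini-Hochberg over all 11761, threshold 0.05; 302 genes were called (181 higher, 121 lower). CPM values use TMM-adjusted totals. Standard errors came from each fold change and its F statistic. The fit was tested on simulated data. The library numbers do not say which labelled replicate is meant and name libraries only. The libraries of a group differed by more than sampling noise (chi-square over its degrees of freedom, 6.55 between C0 and C1 and 2.73 between V0 and V1), so none were combined. Between C0 and V0, which belong to different groups, the same measure was 4.08, below that between C0 and C1.

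The members, lists and naming rule were chosen with earlier results of these data known. Every member is named; from each list the called genes (up to 3 a direction) or else the gene of smallest p. Alternatives were other scalings (DESeq2 size factors, upper quartile, library size only), another filter (none, or at least 1 CPM in 2 libraries), DESeq2 1.42.0, limma 3.58.1 (voom, and log2 FPKM with pseudocounts of 1 and 0.1), each library left out, the replicate number as a block, removal of a length trend (loess, span 0.3), thinning to 8370550 fragments, and thresholds of 0.01 and 0.1. Added after seeing the data were the family shares without each library and the library spread under other scalings.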

Additional observations from a re-analysis of the deposited data

How the results depend on the processing

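The count of genes called was 302 and became 478 with no filter, 171 with DESeq2, 56 and 72 with log2(FPKM + 1) and log2(FPKM + 0.1), 128 and 466 at thresholds of 0.01 and 0.1, and 130 to 636 when each library was left out. With library size only, 370 genes were called, 170 of them higher, so the share of higher calls went from 59.9% to 45.9%. The count of members called was 1 and became 0 with DESeq2, with both FPKM fits and at 0.01, and 0 to 2 when each library was left out. Leaving out a library leaves a group of 1, assumed to vary like the other. The count called over the lists around the members was 2 and became 4 with no filter, 1 with each FPKM fit, after thinning and at 0.01, 5 at 0.1, and 1 to 5 without each library. JUN (-0.066) and FOSL2 (-0.00057) changed sign without V0, and EGR3 without C1 (0.013) and without V0 (0.26), over leave-one-out ranges of -0.066 to 0.19, -0.00057 to 0.81 and -0.50 to 0.26; the cause was not tested. The numbers shared by the libraries do not show a pairing (correlation of deviations 0.052); with the replicate number as a block, 796 genes, 2 members (JUNB, and ATF3 with an adjusted p of 0.0381) and 8 list genes were called. The rise in the FOS family share was 1.34 percentage points, 0.674 to 2.00 without each library. The tested members had estimates above 0 in 9 of 9 cases under each setting except without V0 (7 of 9) and no filter (9 of 10, with EGR2 entering). The fit to log2(FPKM + 1), whose pseudocount shrinks low genes, gave 0.26 for FOSB, 0.11 for FOSL2 and 0.52 for RPS6KA5. Depth limits FOS, FOSB, FOSL2 and EGR2 most.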

Other observations

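Among the other immediate early genes, a few not called by the test were looked at after their values had been seen. DUSP1 and DUSP5, phosphatases that switch off MAP kinases, stood at 19.6 and 18.1 CPM and at 6.48 and 5.28 CPM in C0 and C1, against 13.1 and 15.3 CPM and 3.65 and 3.39 CPM in V0 and V1. Their log2 fold changes were 0.40 and 0.73, with edgeR adjusted p of 0.179 and 0.195. IER2, a nuclear immediate early protein, was at 110.3 and 108.6 CPM in C0 and C1 and 89.8 and 99.2 CPM in V0 and V1 (log2 fold change 0.21, edgeR adjusted p = 0.184). In these 3 genes the groups did not overlap, with clofarabine higher, as in 22% of all tested genes. ZFP36L2, a relative of ZFP36, and KLF6, a zinc finger factor, lay the other way without overlap, as did 21.3% of all tested genes. Their log2 fold changes were -0.29 and -0.27 (edgeR adjusted p of 0.154 and 0.191). ARC, an activity-regulated gene best known from neurons, had 9 and 14 fragments in C0 and C1 (0.678 and 0.606 CPM) and none in V0 and V1, where 3 fragments would be 0.353 and 0.268 CPM; it did not pass the filter and was not tested.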
